A study of Mus musculus with 78 samples.

Results

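The contacts of the Prmt6 promoter were read by circular chromosome conformation capture (4C), in which chromatin is crosslinked, cut and religated so that the DNA ligated to a chosen position, the viewpoint, can be amplified and counted. The restriction fragments with a midpoint within 1 Mb of the Prmt6 viewpoint were analyzed, leaving out the 20 kb on each side, where ligation to neighboring DNA dominates. These were 4505 fragments of the 5972054 in the map, measured in 4 libraries of the 78 samples of the series. The cells were E14TG2a mouse embryonic stem cells, a 129/Ola line, with the genotype ZFP143-FKBP: the transcription factor ZFP143 was fused to an FKBP domain, so that the small molecule dTAG-V1 sends it for degradation. The groups compared were 2 libraries treated with DMSO and 2 libraries treated with 500 nM dTAG-V1 for 6 h, and all of them carried the degron. The study called the pairs biological replicates.

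PRMT6 is an arginine methyltransferase that places asymmetric dimethylarginine on histone H3 and other proteins. ZFP143 binds promoters through a long, conserved DNA motif and activates transcription, and it has been discussed as a protein that helps promoters form chromatin loops. CTCF is the zinc finger protein at which cohesin stops when it extrudes loops, so that CTCF sites often mark where contacts of a promoter end. The study chose its viewpoints, Prmt6 among them, as promoters bound by ZFP143, lower in nascent RNA after 2 h of depletion and at the foot of a loop in an outside contact map, apart from Sik1, its control promoter without ZFP143. The ZFP143 peak at Prmt6 and the fall of Prmt6 at 2 h are therefore descriptions of how the viewpoint was picked.

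The viewpoint lay on chromosome 3 of mm10 (GRCm38.p6), at chr3:110250888-110251179. It covered 292 bases over the start of Prmt6, a gene on the minus strand whose annotated start is base 110250998. The 2 primers below bound it exactly. The capitals mark GATC, the site of MboI, the enzyme that made the fragment ends. The fwd primer reads on the plus strand and the rev primer on the minus strand, both without the sequencing tails.
fwd primer: cacactattttcccgaGATC
rev primer: agggagccgaggaggaaaat

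A single ZFP143 peak lay within 1 Mb, and it covered the viewpoint itself (chr3:110250729-110251319, 591 bases, 119.5-fold over input, −log10 q of 405.3). It ranked 62 by fold enrichment among the 3189 ZFP143 peaks. The peak sat inside the 20 kb left out, so none of the fragments tested held a ZFP143 peak. The promoter from RefSeq (GRCm38.p6, chr3:110250950-110251249, minus strand, 250 bases before to 50 after the start) is shown because it is both the bait and the bound site. Capitals mark CCCAGCA, found at base 202 and, reversed, at base 252, and CCCANNAT, found reversed at base 251 and overlapping the latter.
Prmt6 promoter: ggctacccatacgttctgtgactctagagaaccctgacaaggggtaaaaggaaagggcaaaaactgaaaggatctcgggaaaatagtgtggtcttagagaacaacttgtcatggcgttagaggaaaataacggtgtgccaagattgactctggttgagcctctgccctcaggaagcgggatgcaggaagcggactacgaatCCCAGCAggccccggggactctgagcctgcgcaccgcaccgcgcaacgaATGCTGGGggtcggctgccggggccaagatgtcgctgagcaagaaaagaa

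On either strand, CCCAGCA occurred in 10.2% of the 32851 promoters of 300 bases in the same table, 2 or more copies of it in 0.594%, and CCCANNAT in 13.9%. These are matches of letters and not measured sites.

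Apart from Prmt6, the genes starting within 1 Mb and coding for protein were Ntng1, which encodes a membrane-anchored netrin of neurons and starts 107.0 kb to the left, toward lower coordinates, and Vav3, a guanine nucleotide exchange factor that starts 910.4 kb to the left. The antisense gene C130013H08Rik starts 1.0 kb from the viewpoint, and 9 further entries were pseudogenes, small nuclear RNAs or unconfirmed transcripts. No gene coding for protein started on the right side. The CTCF list held 1 peak in the window, against 2 around the Rbm41 viewpoint, 6 around Cpox, 7 around Cldn1, 36 around Zfp111, 37 around Zfp108 and 50 around Sik1.

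The CTCF peak lay 111.1 kb to the right, at chr3:110361951-110362224. Its 274 bases are shown in plus orientation because the level of contacts dropped there (below), with capitals on the match to AGNNGGCNC at base 146 of the plus strand. These letters occurred on either strand in 46.0% of windows of the same length at the centers of the 22314 CTCF peaks and in 21.2% of the promoters.
CTCF peak: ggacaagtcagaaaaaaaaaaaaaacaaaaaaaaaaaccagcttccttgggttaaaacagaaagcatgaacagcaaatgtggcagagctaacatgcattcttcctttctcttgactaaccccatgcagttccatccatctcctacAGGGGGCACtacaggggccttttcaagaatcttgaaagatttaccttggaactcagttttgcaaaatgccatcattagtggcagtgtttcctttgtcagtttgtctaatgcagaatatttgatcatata

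The libraries held 269543 reads (DMSO 1), 53823 (DMSO 2), 330861 (dTAG 1) and 354789 (dTAG 2). DMSO 2 was the shallowest of the 28 4C libraries of the series and stands apart from the rest, so results are also given without it. All values are RPM, the reads of a fragment scaled to a library total of 1000000 counted reads, and 1 read was worth 18.6 RPM in DMSO 2 and between 2.82 and 3.71 RPM in the other libraries. Of the 4505 fragments, 573 had reads in all 4 libraries and 1677 in none, and the share with reads was 52.2%, 24.2%, 37.6% and 41.5% in the same order. Fragments with reads in both DMSO libraries and neither dTAG library numbered 94, and the opposite pattern was seen in 79. The reads carried no molecular identifiers in the sources used here, so counting limits cover counting error only. With 2 libraries a group, p-values measure the spread between these libraries.

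The share of all reads that fell in the window did not separate the groups. It was 22.5% in DMSO 1 (95% Wilson interval 22.3 to 22.7), 18.7% in DMSO 2 (18.4 to 19.0), 22.3% in dTAG 1 (22.2 to 22.5) and 21.9% in dTAG 2 (21.7 to 22.0). The dTAG values lay between the DMSO values, and the difference of 1.49 percentage points (20.6% ± 2.69 against 22.1% ± 0.305, SD, n = 2 each) had p = 1 in a two-sided exact permutation test, whose smallest possible p was 0.333. Without DMSO 2 the difference was −0.408 percentage points. The left-out 20 kb took 8.12%, 9.58%, 8.75% and 8.72% of the reads, and the whole of chromosome 3 took between 75.5% and 78.2%.

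More of the reads of Prmt6 than of any other viewpoint came from its own chromosome at distances over 1 Mb. This share was 47.6% and 47.2% in DMSO and 46.2% and 46.4% after dTAG. In the 24 libraries of the other viewpoints it lay between 7.81% (Sik1) and 39.6% (Zfp108). Split by distance, every Prmt6 library was above all others at 1 to 5 Mb and at 10 to 50 Mb. Over 50 Mb, Zfp108 (9.80% to 11.1%) and Zfp111 (8.85% to 10.2%) were above Prmt6 (5.70% to 6.35%). At 5 to 10 Mb, Zfp108 (6.17% to 6.69%) was above Prmt6 (5.19% to 5.62%). For the share beyond 1 Mb as a whole, the Prmt6 mean of 46.8% exceeded those of all 6 viewpoints by 8.19 (Zfp108) to 38.0 (Sik1) percentage points. An exact permutation test of 4 against 4 libraries gave p = 0.0286 (adjusted over 6 comparisons 0.0286), the smallest it can give. The test pooled the DMSO and dTAG libraries of a viewpoint and took no account of any pairing by replicate. The share in the window was in turn lower at Prmt6 (mean 21.4%) than at 5 of the 6 viewpoints, which averaged 28% to 37.0% (adjusted exact p = 0.0343 each). Against Sik1 (26.9%) the adjusted p was 0.0857. The viewpoints lie on chromosomes of different length, and their reads were sorted out of shared sequencing by primer, and whether libraries of different viewpoints came from the same cultures is not given in the sources used here.

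**Figure D1:**
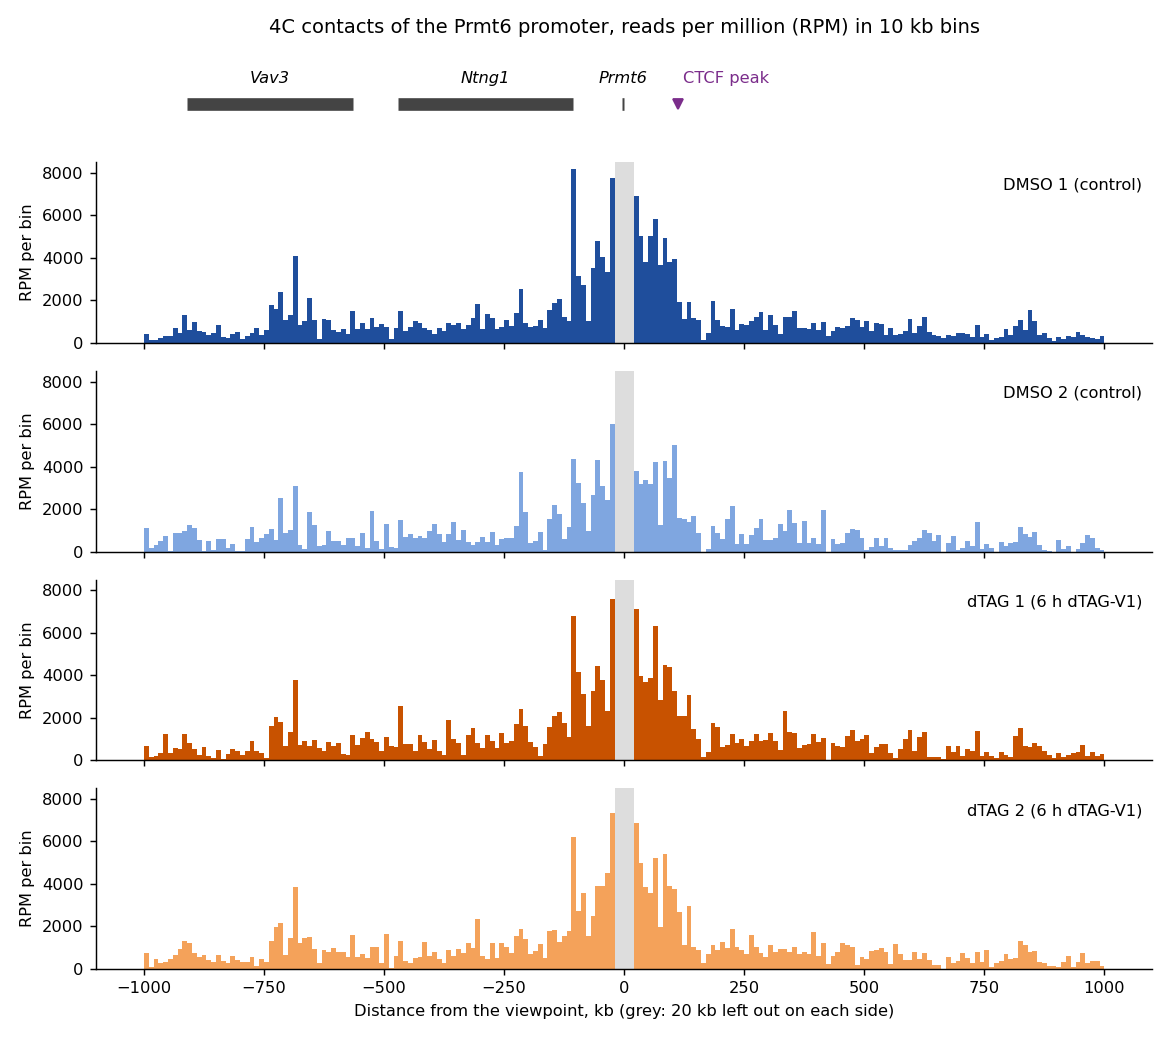
RPM (reads scaled to a library total of 1000000) of the Prmt6 viewpoint in 10 kb bins (vertical axes) against the distance from the viewpoint in kb (horizontal axis), 1 panel for each library, with Vav3, Ntng1, Prmt6 and the CTCF peak drawn above to scale and the left-out 20 kb in gray. All 4 libraries show a high shoulder that ends near the CTCF peak 111.1 kb to the right, a peak at 110 to 100 kb on the left where Ntng1 starts, and a group of high bins inside Vav3.

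Contacts per 10 kb fell with distance on both sides, and the right side held a shoulder that ended near the CTCF peak. On the right, DMSO 1 had 5256 RPM per 10 kb at 20 to 50 kb, 4654 at 50 to 100 kb, and 1483 at 100 to 200 kb. DMSO 2 had 3450, 3285 and 1425, dTAG 1 4925, 4376 and 1682, and dTAG 2 5214, 4007 and 1546. In every library the level fell more from the second of these bands to the third than from the first to the second. On the left the same bands averaged 4670, 2969 and 1707 RPM per 10 kb over the 4 libraries, a decline in more even steps. The left bands held 71, 108 and 209 fragments and the right bands 70, 135 and 250. The levels were not scaled to these numbers.

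The drop on the right was measured at the CTCF peak itself, a comparison chosen after the profile had been seen. In the 50 kb before the peak the libraries had 4382 (DMSO 1), 3664 (DMSO 2), 4237 (dTAG 1) and 4038 (dTAG 2) RPM per 10 kb, and in the 50 kb beyond it 1410, 1382, 1919 and 1702. The ratio was 3.11 and 2.65 in DMSO and 2.21 and 2.37 after dTAG. The dTAG ratios were below both DMSO ratios, at the smallest p that 2 against 2 libraries can give (exact permutation test, two-sided, p = 0.333). The zone beyond the peak holds the bin at 130 to 140 kb, which had the smallest p of the window. Without that bin, left out after seeing the data, the ratio was 3.41 and 2.65 in DMSO and 2.59 and 2.91 after dTAG, and the groups overlapped. At the same distances on the left, where the CTCF list had no peak, the ratio was 2.45 and 2.04 in DMSO and 2.25 and 2.21 after dTAG, and the groups overlapped. The nearer zone on the left holds the high bin at the start of Ntng1. Without that bin, left out after seeing the data, the left ratio was 1.71 and 1.74 in DMSO and 1.81 and 1.75 after dTAG (exact permutation p = 0.333, the smallest possible). On the right the full zones held 150 fragments before and 112 beyond the peak, and on the left 100 nearer and 108 farther. None of the ratios was scaled to fragment number, so they do not compare the sides per fragment. The 10 kb bin that held the CTCF peak had 1937, 1561, 2082 and 2675 RPM, close to its distance expectation.

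**Figure D2:**
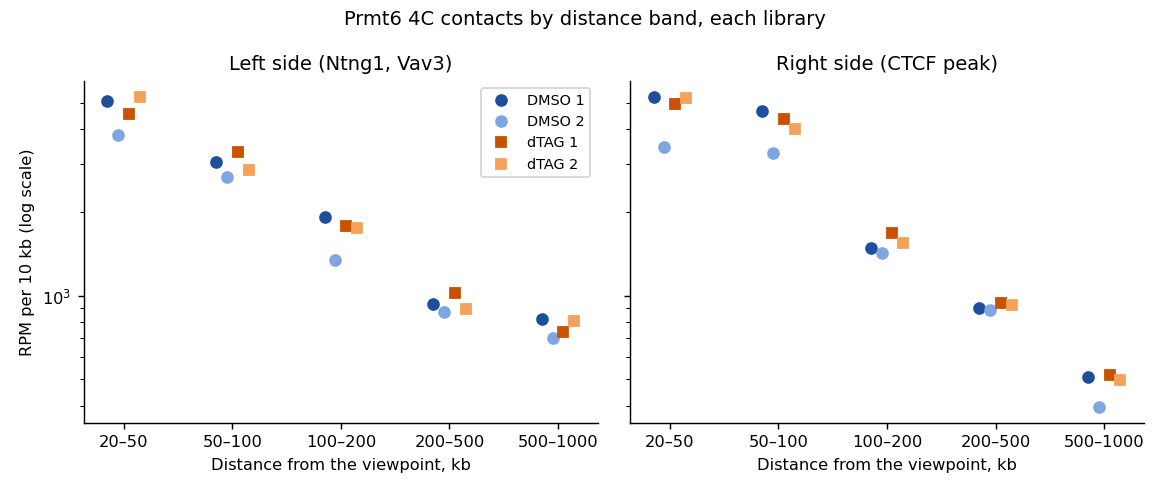
RPM per 10 kb (vertical axis, log scale) in 5 distance bands (horizontal axis, kb) on the left and the right of the viewpoint, with circles for the DMSO and squares for the dTAG libraries. DMSO 2 is the lowest of the 4 points in all 10 bands.

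None of the distance bands passed the test after 6 h of dTAG. Bands were fitted as log2(RPM + 10) with limma over the 70 bands of all 7 viewpoints, at an adjusted p under 0.05 (0% of the 70 called, with a smallest adjusted p at Prmt6 of 0.34). Fitted changes ran from 0.03 (500 to 1000 kb on the left, 95% interval −0.26 to 0.32) to 0.25 (20 to 50 kb on the right, −0.32 to 0.82). The most precise band was 200 to 500 kb on the right, at 0.06 (−0.10 to 0.23), where the libraries had 27016, 26606, 28272 and 27802 RPM in all. All 10 values were positive, and without DMSO 2 the sign turned in 6 of them. Without DMSO 1, which leaves the shallow library alone in its group, the band at 20 to 50 kb on the right was called (0.55, adjusted p = 0.0206), beside 2.86% of the 70 bands.

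The strongest contacts over what distance predicts lay on the left, at Ntng1 and inside Vav3. The expectation was a smooth of log2 RPM on log distance over all bins, and 17 of the 196 tested bins exceeded it more than 2-fold, 13 on the left and 4 on the right. Of the 8 highest, 7 were on the left and 6 overlapped Vav3, whose body spans 36 bins. With the span of the smooth at 0.3 or 0.7 in place of 0.5, settings added after seeing the data, 7 and 8 of these bins were kept.

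The bin at 110 to 100 kb on the left, which holds the start of Ntng1, had a mean of 6382 RPM, second only to the bin at 30 to 20 kb on the left (7170 RPM). It held 8203 RPM in DMSO 1 (2211 reads), 4348 in DMSO 2 (234 reads), 6767 in dTAG 1 (2239 reads) and 6209 in dTAG 2 (2203 reads). The dTAG values lay between the DMSO values and the mean was 3.05 times the expectation. The fitted change was 0.12 on the log2(RPM + 10) scale (95% interval −0.48 to 0.72, limma adjusted p = 0.95 over all 1327 bins) and −0.34 without DMSO 2. Of its 20 fragments, 17, 15, 15 and 19 had reads. The fragment with the highest mean RPM lay 102.6 kb from the viewpoint (chr3:110148340-110148430) and held 1580, 948, 1551 and 1034 RPM. It is shown as the strongest contact of the Ntng1 bin, with the MboI site GATC and the site GTAC of the second enzyme, Csp6I, in capitals.
fragment at Ntng1: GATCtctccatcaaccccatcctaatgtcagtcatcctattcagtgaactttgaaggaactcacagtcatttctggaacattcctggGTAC

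Ntng1 itself was at or near 0 in both RNA assays. In RNA-seq it had 0 reads in all 8 libraries of the depletion time course, which allows up to 0.292 CPM (counts scaled to a library total of 1000000) in the smallest of them. In TT-seq, which sequences RNA labeled for a few minutes and so reads nascent transcription, it had between 2 and 9 reads a library, under the filter for testing.

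Inside Vav3, the bin at 690 to 680 kb on the left stood highest over its expectation, at 6.78 times. It held 4096, 3084, 3751 and 3845 RPM in DMSO 1, DMSO 2, dTAG 1 and dTAG 2, and the groups overlapped. The change was 0.10 (95% interval −0.41 to 0.60). The bins at 740 to 730, 730 to 720 and 720 to 710 kb stood 2.81, 2.97 and 4.2 times over expectation, and the bin at 660 to 650 kb 2.71 times. The bin at 920 to 910 kb, which lies mostly before Vav3 and takes in only its start, held 1313, 985, 1221 and 1319 RPM, 3.12 times the expectation, and changed by 0.16 (−0.64 to 0.96). All 36 bins of Vav3 together took 14.8%, 14.2%, 12.3% and 14.9% of the reads of the window, and their median change of 0.09 stood beside 0.17 for all 196 bins.
fragment in Vav3: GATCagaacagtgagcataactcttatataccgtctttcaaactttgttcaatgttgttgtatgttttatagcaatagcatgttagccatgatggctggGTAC

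This fragment (chr3:109569655-109569757, cut sites in capitals) had the highest mean RPM of the bin at 690 to 680 kb and is shown because it marks how uneven single fragments were. Its level was 590 RPM in DMSO 1, 1691 in DMSO 2, 0 in dTAG 1 and 614 in dTAG 2, while the bin as a whole varied from 3084 to 4096. In dTAG 1, 0 of 330861 reads allows up to 9.07 RPM (3 reads). It held 159, 91, 0 and 218 reads, and its rank rested on DMSO 2, where a read is worth the most RPM. The fragment second by mean RPM had 200 and 167 RPM in DMSO and 795 and 775 after dTAG (54, 9, 263 and 275 reads), which is more reads in all. The means of these neighbors in a bin lay in opposite directions between the groups.

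**Figure D3:**
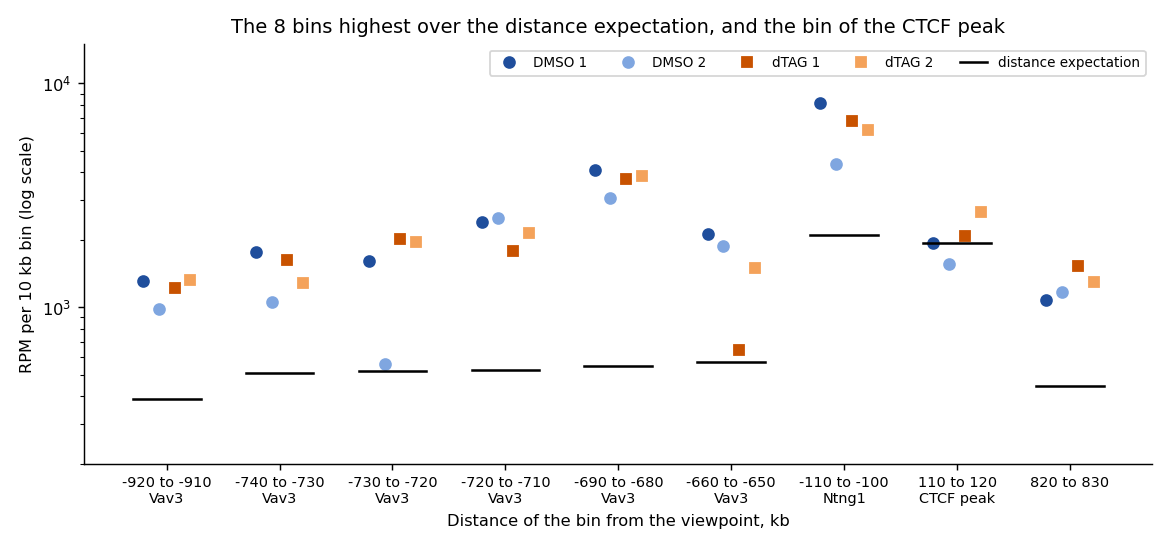
RPM (vertical axis, log scale) of the 8 bins highest over the distance expectation and of the bin with the CTCF peak, named by distance from the viewpoint in kb and by gene (horizontal axis), with circles for DMSO and squares for dTAG libraries. The black line is the expectation from distance, which all 4 libraries exceed in each of the 8 bins. The bins were picked by the mean of these same libraries over that line, so this is partly built in. The lowest ratio of a library to the line is 1.08 (DMSO 2 at 730 to 720 kb on the left).

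The 8 bins did not move together. Their fitted changes had a median of 0.11 and ran from −1.01 to 1.05, and none was called. In 4 of them the groups did not overlap, and these went both ways. At 720 to 710 kb in Vav3 the libraries held 2393 and 2508 RPM in DMSO and 1789 and 2136 after dTAG (−0.32, 95% interval −0.93 to 0.28). At 660 to 650 kb in Vav3 they held 2133 and 1877 RPM in DMSO and 647 and 1502 after dTAG (−1.01, interval −1.96 to −0.06). At 730 to 720 kb, also in Vav3, they held 1614 and 557 in DMSO and 2010 and 1959 after dTAG (1.05, −0.01 to 2.12). The bin on the right among the 8, at 820 to 830 kb in a stretch without annotated genes, held 1076, 1171, 1520 and 1291 RPM (0.32, −0.45 to 1.08).

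Across the window, no 10 kb bin passed the test at 6 h. The bins were fitted as log2(RPM + 10) with limma on the 1327 bins of all 7 viewpoints with a mean of 50 RPM or more, 196 of them at Prmt6. At an adjusted p under 0.05, 0% of the 1327 were called in either direction, and the smallest adjusted p at Prmt6 was 0.92. Unadjusted p-values under 0.05 were reached by 7 of the 196 bins (3 lower, 4 higher, 3.57%), beside 5.12% of all bins. edgeR on the recovered reads called 0 bins with 3 of 196 under an unadjusted 0.05, and DESeq2 called 0 with 13 of 196. Both were fitted to the Prmt6 bins alone, so they have no share over all viewpoints beside them. In 34 bins both dTAG libraries were above both DMSO libraries and in 22 both were below (17.3% and 11.2%, beside 16% and 17.6% over all viewpoints).

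The smallest unadjusted p belonged to the bin at 130 to 140 kb on the right, beyond the CTCF peak. It held 1914 and 1375 RPM in DMSO and 3059 and 2962 after dTAG (0.89, limma adjusted p = 0.92). The other 6 bins were 750 to 740 kb (−1.79) and 660 to 650 kb on the left in Vav3, 260 to 250 kb (0.91) and 130 to 120 kb (0.95) on the left in Ntng1, and 280 to 290 kb (−0.84) and 390 to 400 kb (0.91) on the right.

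The greatest fitted rises and falls did not pass the test. The 3 greatest rises were at 160 to 170 kb on the right (145, 0, 160 and 256 RPM, log2 change 2.44), 880 to 870 kb on the left (508, 18.6, 601 and 651, 2.39) and 950 to 940 kb on the left (304, 18.6, 357 and 440, 2.10). In each of them DMSO 1 was near the dTAG libraries and DMSO 2 held at most 1 read. The 3 greatest falls were at 750 to 740 kb on the left (605, 836, 124 and 316 RPM, −1.79), 650 to 660 kb on the right (334, 780, 133 and 197, −1.60) and 480 to 490 kb on the right (1102, 1022, 883 and 155, −1.48). The last of these rested on dTAG 2, which held 55 reads there against 292 in dTAG 1. Their adjusted p was 0.92 in each case.

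The precision of the bins set what could be seen. The 95% interval reached a median of 1.12 to either side of the fitted change over the 196 bins and 0.67 over the 36 bins within 200 kb. The interval lay wholly between −1 and 1 in 27 of the 196 bins and in 20 of those 36. A change by a factor of 2 in both directions was therefore outside the interval in most bins near the promoter and in few distant ones. Taken 1 direction at a time, the interval lay above −1 in 105 of the 196 bins and below 1 in 73. The median bin held 204.5, 34, 259 and 275.5 reads in DMSO 1, DMSO 2, dTAG 1 and dTAG 2.

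**Figure D4:**
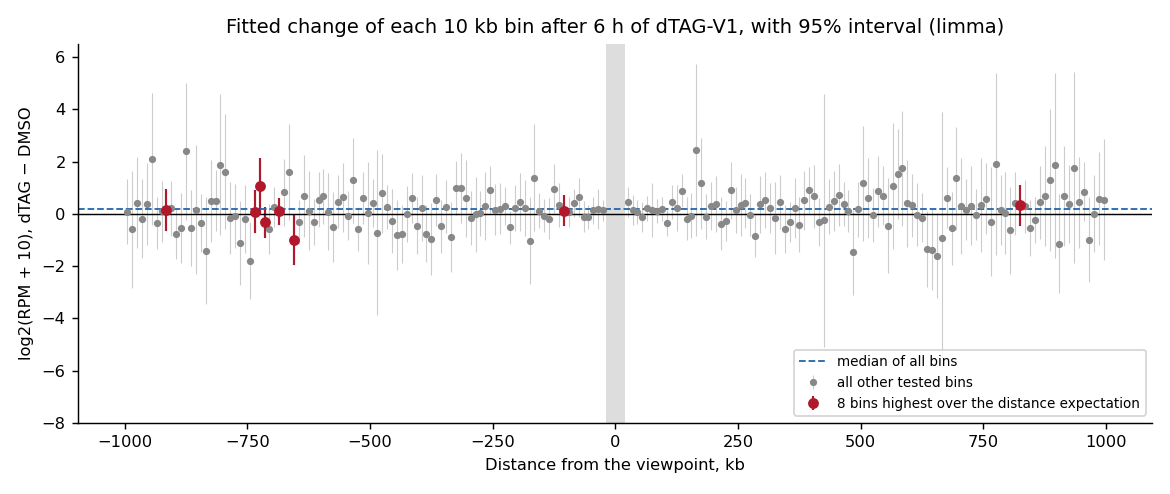
Fitted change of each 10 kb bin, as the difference in log2(RPM + 10) between dTAG and DMSO (vertical axis), against the distance from the viewpoint in kb, with bars for the 95% interval of the limma fit and red for the 8 bins highest over the distance expectation. Points lie around the median of 0.17, and intervals are narrow near the viewpoint and wide far from it.

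The median change of 0.17 rested on DMSO 2. It was −0.015 without that library and 0.32 without DMSO 1. It was 0.07 when libraries were scaled to the window, which removes the lower window share of DMSO 2. Without DMSO 1, 0.678% of the 1327 bins of all viewpoints were called higher (9 bins) and 0.0754% lower (1 bin). Of these, 5 were at Prmt6, all higher and 4 of them in Vav3: 880 to 870, 810 to 800, 730 to 720 and 670 to 660 kb on the left and 580 to 590 kb on the right. In these bins DMSO 2 held 1, 1, 30, 7 and 3 reads and DMSO 1 138 at 810 to 800 kb and 137 at 880 to 870 kb. Without DMSO 2 no bin was called.

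Libraries resembled each other as much across the groups as within them. Over the 196 bins, on the log2(RPM + 10) scale, Pearson's r was 0.71 between the DMSO libraries and 0.75 between the dTAG libraries, and 0.83 between DMSO 1 and either dTAG library. With DMSO 2 it was 0.70 for dTAG 1 and 0.69 for dTAG 2. The bins share the decay with distance and are not independent, so these values describe the profiles and carry no test.

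The gene at the viewpoint was transcribed at a lower level at the time of the 4C. In TT-seq the DMSO libraries had 16.5 and 16.8 CPM of Prmt6. After 2 h of dTAG the values were 5.26 and 3.07, after 6 h 3.51 and 3.06, and after 24 h 2.46 and 3.87. All 6 dTAG libraries were below both DMSO libraries. The log2 change was −2.01 ± 0.31 (SE) at 2 h, the time used to pick the viewpoint, −2.34 ± 0.32 at 6 h (edgeR quasi-likelihood adjusted p = 0.00609) and −2.38 ± 0.32 at 24 h (0.00441), and these comparisons share the DMSO libraries. Among the 17870 tested genes, 2.43%, 2.83% and 4.09% were called lower at these times, and 0.397% were called higher at 6 h. The 6 h call was lost when either 6 h library was left out, with adjusted p = 0.0711 and 0.0837, and the 2 h value no longer passed without DMSO replicate 1, DMSO replicate 2 or 2 h replicate 2.

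Steady-state RNA of Prmt6, from RNA-seq libraries not used to pick the viewpoint, was lower at every time measured. The DMSO libraries had 27.4 and 28.6 CPM. After 24 h of dTAG the values were 3.23 and 2.55, after 48 h 4.00 and 3.03, and after 72 h 6.75 and 6.55. The groups did not overlap. The log2 change was −3.26 ± 0.15 (SE, n = 2 each) at 24 h (edgeR test against a 1.5-fold change, adjusted p = 1.04e-14), −2.98 ± 0.15 at 48 h (1.68e-14) and −2.08 ± 0.13 at 72 h (5.80e-12). The strand setting of the RNA-seq counts is not given in the sources used here, and C130013H08Rik, which overlaps Prmt6, had at most 11 reads in these libraries. Among 13925 tested genes, 3.41%, 7.71% and 12% were called lower at these times.

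**Figure D5:**
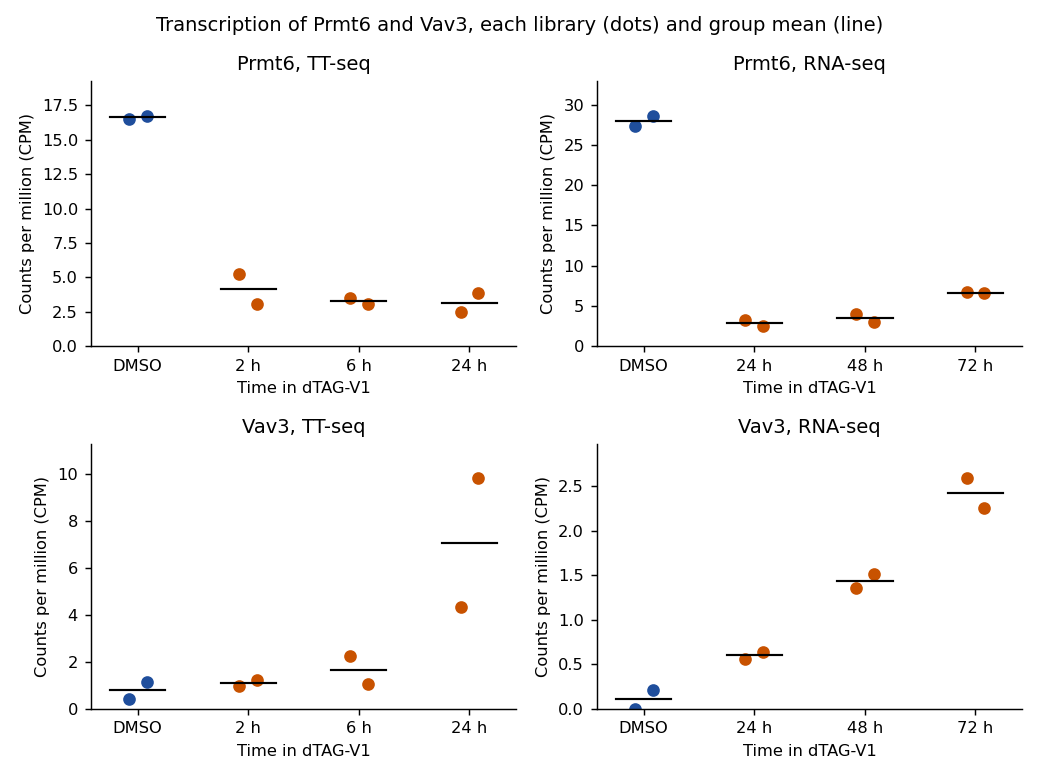
CPM (vertical axes) of Prmt6 and Vav3 in TT-seq and RNA-seq, for DMSO and each time in dTAG-V1 (horizontal axes), with a dot for each library and a line for the mean of 2. Prmt6 lies between 2.46 and 5.26 CPM in the dTAG libraries of TT-seq against 16.5 and 16.8 in DMSO, and Vav3 is near 0 in DMSO and highest at the last time of each assay.

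The antisense transcript C130013H08Rik, which starts inside Prmt6 on the other strand and runs across the viewpoint, was not called at any time in TT-seq. It had 28 and 18.1 CPM in DMSO and 17.8 and 11.1 at 6 h in TT-seq, where reads were split by strand before counting. The log2 change was −0.37 at 2 h, −0.67 at 6 h (adjusted p = 0.376) and 0.03 at 24 h. With the replicate number as a block the 6 h value was called (−0.68, adjusted p = 0.0201).

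Vav3, which 6 of the 8 highest bins overlapped, was at a low level at the time of the 4C and was higher later. In TT-seq the DMSO libraries had 0.414 and 1.14 CPM. After 2 h of dTAG the values were 0.956 and 1.2, after 6 h 2.26 and 1.07, and after 24 h 4.33 and 9.80. The change was 1.03 at 6 h (edgeR adjusted p = 0.444) and 3.11 at 24 h (0.0186, beside 2.02% of genes called higher). The 24 h call was lost without DMSO replicate 1 (2.63, adjusted p = 0.102) or 24 h replicate 2 (2.40, 0.0780). In RNA-seq Vav3 had 0 and 3 reads in DMSO and 7 in each library at 24 h, then 17 in each at 48 h, and 28 and 33 after 72 h, and it was called at 48 h and 72 h (edgeR adjusted p = 0.000305 and 2.23e-06), the former not by DESeq2 (0.0220). The ratio of summed reads at 72 h was 23.1 (95% exact counting interval 7.55 to 115.2). No 4C was made at these later times.

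Of the genes starting within 1 Mb, 3 of 13 passed the TT-seq filter and 2 of 13 the RNA-seq filter, and Prmt6 was the gene called at 6 h. Of the 8 other arginine methyltransferases measured (Prmt1, Prmt2, Prmt3, Carm1, Prmt5, Prmt7, Prmt8 and Prmt9), none was called at 2 h or 6 h in TT-seq, and 1 was at 24 h (Prmt5, −0.51, adjusted p = 0.0431). In RNA-seq Prmt2 was higher at 24, 48 and 72 h (1.32, 2.36 and 3.31), and Carm1 (−0.93 and −1.30) and Prmt7 (−0.85 and −1.10) were lower at 48 and 72 h. Prmt8 was called higher at 48 h (1.64). With DESeq2 the calls of Prmt5 at 24 h, Prmt2 at 24 h and Prmt8 at 48 h were lost (adjusted p = 0.0543, 0.255 and 0.382). The background shares in RNA-seq were 2.32%, 10.5% and 13.7% higher and 3.41%, 7.71% and 12% lower at the 3 times, and in TT-seq 4.09% of genes were called lower at 24 h.

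The Zfp143 transcript itself rose by 1.16 on the log2 scale at 6 h of TT-seq (edgeR adjusted p = 0.001), which says nothing of the protein, the target of the degrader. The 7 stem cell markers summed to between 3395 and 3669 CPM in the DMSO libraries and between 3591 and 3809 at 6 h in TT-seq, and none of them was called at 6 h. The markers of primitive endoderm, mesoderm, neural cells and fibroblasts summed to at most 18.0 CPM a list at 6 h. Some markers were called at the later times. In RNA-seq at 48 and 72 h, 2 of 2 tested neural markers, 2 of 3 of primitive endoderm and 2 of 3 of fibroblasts were called higher, the 1 tested of mesoderm was not called, and 2 of 7 stem cell markers were called lower at both times (Nanog, −1.35 and −1.62, and Sox2, −0.85 and −1.03). Of all tested genes 10.5% and 13.7% were called higher at these times, and 7.71% and 12% lower. The summed level of the neural list was 2.78 to 3.54 CPM in DMSO and 15.4 to 16.9 at 48 and 72 h, that of primitive endoderm 5.69 to 6.91 and 14.4 to 15.2, that of fibroblasts 2.94 to 2.99 and 5.58 to 8.57, and that of the stem cell list 5380 to 5496 and 3883 to 3987. In TT-seq at 24 h none of these markers was called, and primitive endoderm summed to 20.1 to 22.0 CPM against 9.30 to 12.5 in DMSO. Their part in the later changes of Vav3 and the methyltransferases was not tested. Protein loss was not measured in the files used here.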

How the data were processed

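4C was done with MboI and Csp6I on DMSO-treated and dTAG-V1-treated cells. Per the methods, the authors sorted reads by viewpoint primer, mapped them with bwa to mm10, discarded multi-mapping reads, counted reads at fragment ends, and left out fragments with both ends cut by the same enzyme. They deposited the counts as RPM, scaled to 1000000 counted reads a library. Whole reads were recovered from the RPM steps (100% of values within 0.001 of a whole read). PCR copies were not removed by any step named in the sources used here, which can make single fragments uneven. The authors also deposited gene counts (STAR, with HTSeq for TT-seq), ZFP143 peaks with fold over input (a ratio) and −log10 q values, and CTCF peaks as positions.

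Fragments were summed in 10 kb bins and in 10 distance bands, and log2(RPM + 10) was fitted with limma 3.58.1, bins with a mean of 50 RPM or more, over all 7 viewpoints. TT-seq counts were tested with edgeR 4.0.16 (genes over 10 counts in 4 of 8 libraries, adjusted p under 0.05, log2 change over 0.5) and RNA-seq counts against 1.5-fold (adjusted p under 0.01). Gene totals were 9721568 to 16532077 (TT-seq) and 10261851 to 15316700 (RNA-seq) counts a library. P-values were adjusted by Benjamini-Hochberg. Shares were compared by exact permutation (scipy). Gene names came from GENCODE vM21 for 55141 of 55401 identifiers.

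The text names Prmt6, Zfp143, genes starting within 1 Mb, the arginine methyltransferases, called bins, the 8 bins highest over the distance expectation (lowess, span 0.5), and the 3 greatest rises and falls. Other genes and bins were chosen after their values were seen. The members and lists were chosen with earlier results of these data known. Fits were checked on simulated data. Alternatives covered pseudocounts, filters, bin sizes, scaling, DESeq2 1.42.0, the replicate block and leaving out each library.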

Additional observations from a re-analysis of the deposited data

Results flagged for a closer look

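Taken as a whole, the share of reads beyond 1 Mb on the chromosome of the viewpoint moved one way at Prmt6 and the other way at 5 other viewpoints, in every library. At Prmt6 the difference, dTAG minus DMSO, was −1.08 percentage points, with both dTAG libraries below both DMSO libraries. It was higher by 2.7 at Cldn1, 1.18 at Cpox, 0.499 at Rbm41, 1.85 at Zfp108 and 3.03 percentage points at Zfp111, with both dTAG libraries above both DMSO libraries. At the sixth, Sik1, the difference was −0.600, in the direction of Prmt6, and the groups overlapped (9.45% and 8.82% in DMSO, 9.26% and 7.81% after dTAG). The difference between viewpoints was not tested, and the libraries of different viewpoints may share cultures, which the sources used here do not give. Groups held 2 libraries, too few for a check of single libraries against their group.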

How the results depend on the processing

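The count of called bins was 0 in 17 of 18 alternatives, the exception being DMSO replicate 1 left out, and leaving out a library gave 0 to 5 bins and 0 to 1 bands. The replicate numbers did not pair the 4C libraries (correlation of replicate deviations −0.034 over 196 bins) or those of RNA-seq (−0.046 to 0.060), and in TT-seq it was 0.205 to 0.651 with 2 numbers only. With the replicate block 0 bins and 0 bands were called, the median change stayed 0.17, Prmt6 changed by −2.03, −2.34 and −2.36 at 2, 6 and 24 h of TT-seq and by −3.27, −2.99 and −2.08 at 24, 48 and 72 h of RNA-seq, and the block changed no call other than that of C130013H08Rik at 6 h. The median change of the bins was 0.019 with DESeq2 and −0.015 to 0.32 when a library was left out. The window share difference ran from −0.408 to 3.40 percentage points without single libraries. Prmt6 in TT-seq ran from −2.44 to −1.65 at 2 h, −2.44 to −2.24 at 6 h and −2.75 to −2.10 at 24 h, and the call was lost at 2 h without DMSO replicate 1, DMSO replicate 2 or 2 h replicate 2 and at 6 h without either 6 h library. In RNA-seq it ran from −3.45 to −3.12 at 24 h, −3.21 to −2.81 at 48 h and −2.11 to −2.04 at 72 h, with no call lost.

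Values near 0 changed sign. Scaled to the window, the bin at 690 to 680 kb on the left changed by −0.012 and that at 740 to 730 kb by −0.031, and the bands turned to −0.0081 (right, 50 to 100 kb), −0.043 (right, 200 to 500 kb), −0.0099 (left, 50 to 100 kb), −0.026 (left, 200 to 500 kb) and −0.077 (left, 500 to 1000 kb). With TMM in edgeR the bins at 690 to 680, 740 to 730 and 110 to 100 kb on the left stood at −0.0049, −0.042 and −0.021, and with DESeq2 at −0.063, −0.104 and −0.081. Over fragments with reads, the bin at 720 to 710 kb turned to 0.115. When a library was left out, the bins at 110 to 100, 690 to 680, 740 to 730 and 920 to 910 kb ran from −0.34 to 0.58, −0.11 to 0.30, −0.29 to 0.44 and −0.049 to 0.36. The bands on the left ran from −0.047 to 0.36, −0.011 to 0.21, −0.12 to 0.40, −0.010 to 0.17 and −0.085 to 0.14 outward, and those on the right that turned from −0.053 to 0.55 (20 to 50 kb), −0.15 to 0.35 (50 to 100 kb) and −0.0069 to 0.36 (500 to 1000 kb). In TT-seq Vav3 at 2 h ran from −0.062 to 1.39 and C130013H08Rik at 24 h from −0.42 to 0.39.

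The cause of these changes was not tested. The median bin held 34 reads in DMSO 2, and no alternative brought the other libraries to that depth.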
